A study of Mus musculus with 6 samples.

Results

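The 37 genes described here encode the machinery of mitosis. They were taken from the deposited table of 46078 genes by gene name, and all 37 were found, each on 1 row. The samples were epithelial cells of the proximal small intestine of untreated C57BL/6JRj mice, freed with EDTA and trypsin and sorted by flow cytometry as positive for EpCam, an epithelial adhesion molecule, and negative for CD45, a leukocyte surface protein. There were 3 libraries from young mice (2 to 3 months old) and 3 from aged mice (20 to 22 months old), taken as 1 mouse each since the series design names 3 mice per age. The replicate numbers were given here in the order of the deposited samples and only name the libraries. The labels give no sex, batch or pairing, and no genetic change or treatment separates the groups. Nothing beyond the series design says that the libraries of a group came from separate mice, so the p-values measure the spread between these libraries. The design asks what separates the intestinal epithelium of old animals from that of young ones.

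The intestinal epithelium is renewed throughout life by cells that divide in the crypts, where stem cells at the base feed a zone of rapidly dividing progenitors. Cells that leave the crypt for the villus stop dividing. Mitosis genes are transcribed late in the cell cycle under the transcription factors B-Myb and FoxM1, proteins such as the cyclins, Plk1, the Aurora kinases and Cdc20 are destroyed as the cell exits mitosis, and in this tissue their transcripts mark the dividing crypt cells. A bulk library cannot tell fewer dividing cells from less of these transcripts per dividing cell.

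Many late cell cycle promoters are known to carry CCAAT boxes, which bind the factor NF-Y, and a cell cycle homology region (CHR), the element through which the MuvB complex acts. RefSeq promoter windows (GRCm38.p6, from 250 bases before to 50 bases after the annotated start) were found for 30 of the 37 genes, and 32 windows in all, since Prc1 and Ect2 have 2 each. Ccna2, Foxm1, Aurkb, Incenp, Tpx2, Stmn1 and Kif20a had no window in the table. The windows of 5 genes that carry both elements are printed to show what the set shares in sequence, read 5' to 3' on the strand of the gene, with CCAAT (or ATTGG, its reverse) and TTTGAA (or TTCAAA) or TTTAAA in capitals. Ccnb1 lies at chr13:100786437-100786736, Ccnb2 at chr9:70421505-70421804, Cdk1 at chr10:69352863-69353162, Mki67 at chr7:135716330-135716629 and Top2a at chr11:99024140-99024439, all on the minus strand.
Ccnb1: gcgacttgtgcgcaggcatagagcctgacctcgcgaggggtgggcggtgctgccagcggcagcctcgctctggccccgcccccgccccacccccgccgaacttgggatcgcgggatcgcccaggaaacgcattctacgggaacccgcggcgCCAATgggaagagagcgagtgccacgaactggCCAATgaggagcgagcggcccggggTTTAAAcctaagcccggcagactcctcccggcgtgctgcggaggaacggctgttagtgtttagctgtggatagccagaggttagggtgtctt
Ccnb2: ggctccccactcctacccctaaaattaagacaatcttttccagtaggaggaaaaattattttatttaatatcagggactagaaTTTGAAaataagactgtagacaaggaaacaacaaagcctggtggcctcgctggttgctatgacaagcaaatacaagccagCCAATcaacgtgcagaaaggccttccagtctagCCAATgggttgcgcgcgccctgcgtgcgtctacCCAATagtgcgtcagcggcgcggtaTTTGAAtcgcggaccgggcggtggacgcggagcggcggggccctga
Cdk1: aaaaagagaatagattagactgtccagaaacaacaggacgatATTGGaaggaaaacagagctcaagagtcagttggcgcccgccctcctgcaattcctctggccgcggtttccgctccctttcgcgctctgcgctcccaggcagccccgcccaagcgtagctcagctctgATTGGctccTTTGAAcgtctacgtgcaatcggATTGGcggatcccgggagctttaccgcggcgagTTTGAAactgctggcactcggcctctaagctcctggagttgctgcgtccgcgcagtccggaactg
Mki67: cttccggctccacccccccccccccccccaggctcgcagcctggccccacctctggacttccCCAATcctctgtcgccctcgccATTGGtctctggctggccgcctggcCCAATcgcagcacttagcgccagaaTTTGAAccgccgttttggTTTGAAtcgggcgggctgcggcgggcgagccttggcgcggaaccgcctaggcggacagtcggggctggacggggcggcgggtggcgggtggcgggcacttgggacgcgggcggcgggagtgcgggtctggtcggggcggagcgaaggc
Top2a: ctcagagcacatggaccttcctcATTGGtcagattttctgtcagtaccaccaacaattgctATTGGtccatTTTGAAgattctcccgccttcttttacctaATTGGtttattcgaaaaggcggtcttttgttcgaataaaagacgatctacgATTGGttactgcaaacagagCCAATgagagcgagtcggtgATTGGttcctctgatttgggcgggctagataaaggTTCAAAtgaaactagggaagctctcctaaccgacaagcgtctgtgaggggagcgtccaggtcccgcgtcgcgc

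In these windows the letters lie at various distances from the start. Ccnb1 has CCAAT beginning 99 and 67 bases before the start and TTTAAA 42 bases before it. Ccnb2 has CCAAT at 87, 54 and 21 bases before the start, each 33 bases from the next, and TTTGAA 167 bases before and 4 bases after it. Cdk1 has ATTGG at 208, 80 and 48 bases before the start, the last pair 32 bases apart, and TTTGAA at 71 and 15 bases before it. Mki67 has CCAAT or ATTGG at 188, 166 and 141 bases and TTTGAA at 116 and 98 bases before the start, so all of its matches lie farther upstream. Top2a has 6 matches to CCAAT on either strand, from 227 to 58 bases before the start, and a CHR at 179 and 23 bases before it.

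The letters searched were CCAAT for the CCAAT box, and TTTGAA and TTTAAA for the CHR, each on both strands, and in 2 member windows matches shared bases. Of the 32 windows, 24 (75%) held both a CCAAT box and a CHR, against 3525 of all 32851 promoter windows (10.7%) and 1017 of 13372 windows of genes tested here (7.61%). A CHR was in 28 windows (87.5%, against 27.6% of all), a CCAAT box in 25 (78.1%, against 37.4%), and at least 2 CCAAT boxes in 17 (53.1%, against 11.7%). Boxes whose first letters lay 31 to 34 bases apart, a spacing chosen after the windows were seen, stood in 6 windows (18.8%, against 1.2% of all). The windows of Nuf2, Mad2l1 and Nusap1 held none of these letters. A match describes the window and is not a measured site.

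Total counts per library ran from 41479573 to 58989166, and the mitosis genes held from 144012 to 259854 of them. Counts of a member in a library lay between 665 and 36830, so every member passed the filter on low counts. Levels are given as CPM, counts scaled to the library total and then by TMM factors, which adjust for differences in RNA composition between libraries. No age difference among the 37 genes passed the test. In edgeR's quasi-likelihood test 0 were called higher and 0 lower in aged mice at a Benjamini-Hochberg adjusted p below 0.05, while 0.623% and 0.784% of the 14923 genes tested were called higher and lower (1.41% either way). None of the 37 had an unadjusted p below 0.05, where 9.23% of all genes did, and DESeq2 and limma-voom gave the same counts of 0. The smallest adjusted p of a member was 0.684. Of the 37 genes, 31 had a log2 fold change above 0 (51.8% of all genes did), with a median of 0.08 beside 0.0065 for all genes, and members ran from -0.10 to 0.25. The sign of most of these small values rested on single libraries. Without aged replicate 2 the median was 0.0045 with 19 genes above 0, without young replicate 3 it was 0.02 with 20, without young replicate 2 it was 0.15 with 34, and without aged replicate 1 it was 0.16 with 35.

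**Figure D1:**
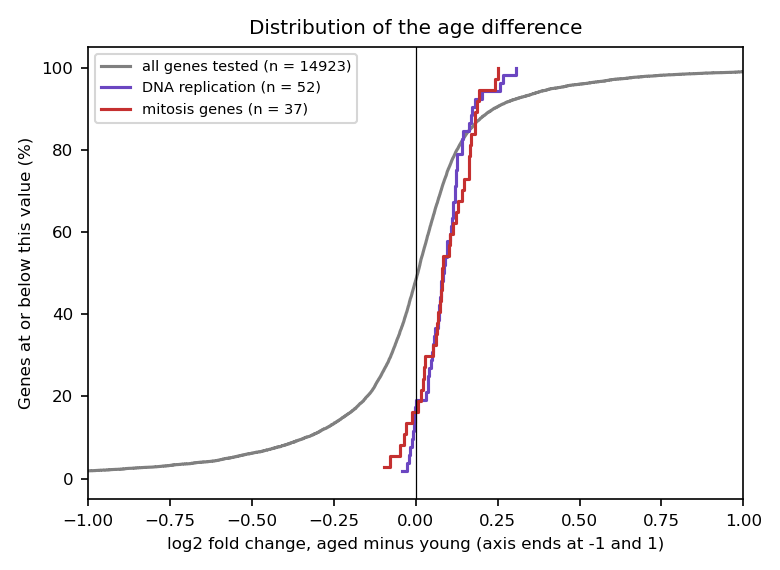
Cumulative share of genes (y axis, %) at or below each log2 fold change of aged minus young (x axis) for the 37 mitosis genes, 52 DNA replication genes and all 14923 genes tested. Every mitosis gene lies between -0.10 and 0.25, and the axis leaves out genes beyond -1 and 1.

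The intervals of this fit show, for each gene taken alone, how large an age difference could be. The 95% interval of the log2 fold change lay within 1.5-fold in both directions for 36 of the 37 genes, as it did for 65% of all genes, and the exception was Top2a, whose upper bound of 0.59 lies just past that line. Of the lists given below, it did so for 19 of 19 condensin and cohesin genes and 49 of 52 DNA replication genes. For Cdk1 regulators and cell cycle transcription factors it did so for 28 of 31, and for enterocyte genes for 5 of 16. Standard errors of the members ran from 0.0781 to 0.161. The libraries of the groups overlapped for all 37 members, while 13.8% of all genes had groups without overlap (6.3% higher and 7.49% lower in aged mice). For 29 members (78.4%, against 65.5% of all genes) the log2 fold change was smaller than the standard deviation of log2 CPM between libraries of an age group.

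**Figure D2:**
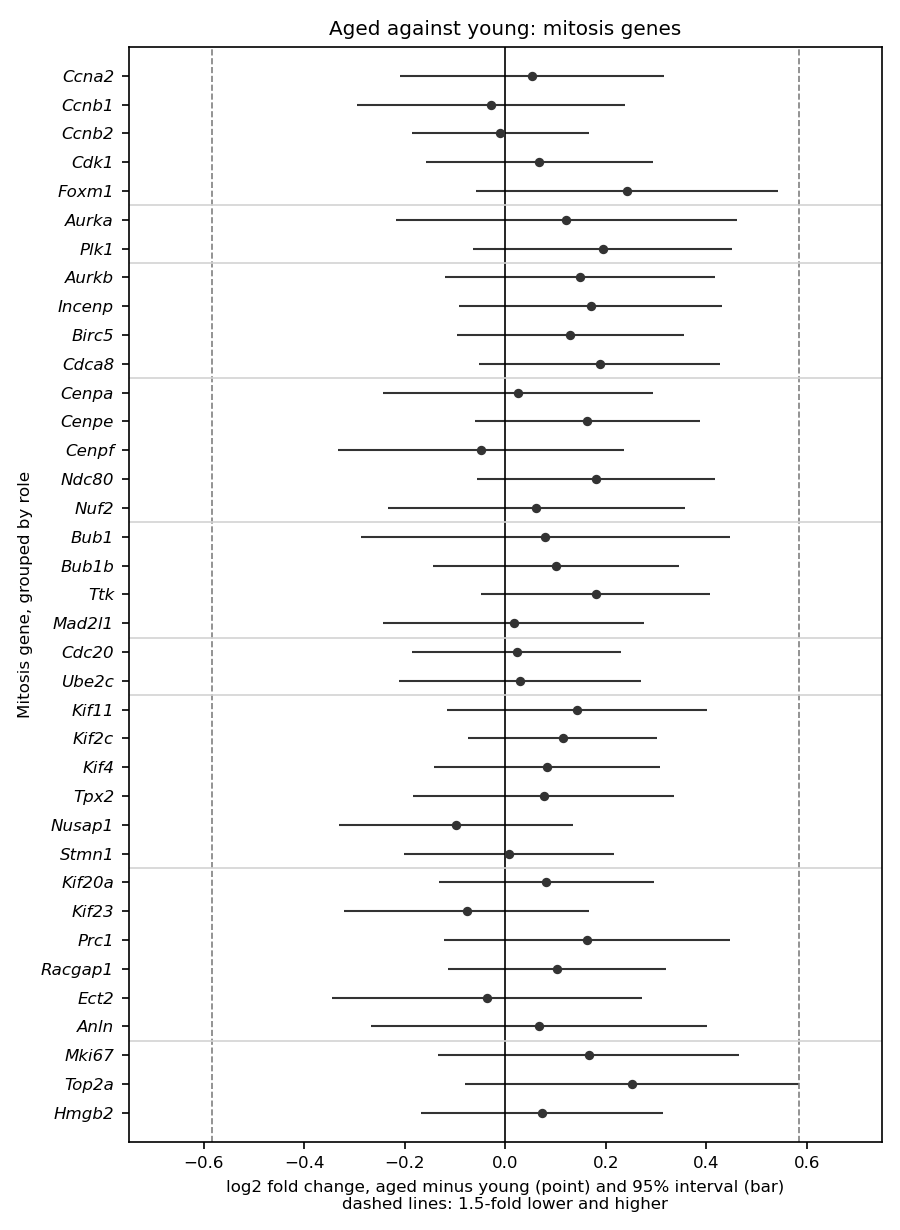
Log2 fold change of aged minus young (points, x axis) with its 95% interval (bars) for each mitosis gene, grouped by role on the y axis; dashed lines stand at 1.5-fold lower and higher. Every interval crosses 0, and the upper bound of Top2a reaches 0.59.

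The B-type and A-type cyclins bind Cdk1, the kinase that drives entry into mitosis. Cdk1 (ENSMUSG00000019942, chromosome 10, 69335146 to 69352938, GRCm38) stood at 91.6, 98.1 and 84.5 CPM in the young and 83.9, 107 and 96.6 CPM in the aged libraries. The aged libraries held both the lowest and the highest value, and the log2 fold change was 0.07 ± 0.100 (SE, adjusted p = 0.919 by edgeR). Ccnb1, which encodes cyclin B1 (chromosome 13, 100778650 to 100786570), had 22.2, 21.6 and 17.9 CPM in the young libraries and 18.1, 22.1 and 20.2 CPM in the aged, so the groups covered nearly the same range (log2 fold change -0.03 ± 0.118, adjusted p = 0.977). Ccnb2, for cyclin B2 (chromosome 9, 70407692 to 70421547), was among the steadiest members, at 122, 108 and 115 CPM in the young libraries and 108, 122 and 112 CPM in the aged. Its means were 115 ± 7.05 and 114 ± 7.19 CPM (SD, n = 3 each), and its 95% interval of -0.19 to 0.17 was among the narrowest. Ccna2, for cyclin A2, stood at 178 ± 20.3 and 185 ± 25.2 CPM.

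Foxm1 encodes a transcription factor that switches on many of the other members. It lies on chromosome 6 (128362967 to 128376146) and stood at 93.4, 116 and 81.6 CPM in the young libraries and 102, 128 and 115 CPM in the aged. Young replicate 2 lay above aged replicates 1 and 3, so the groups overlapped. The log2 fold change of 0.24 ± 0.133 had the lowest p of the 37 genes (unadjusted 0.102, adjusted p = 0.684 by edgeR) and an interval of -0.06 to 0.54. Over the fits without 1 library the log2 fold change of Foxm1 ran from 0.13 to 0.38. The highest was without young replicate 2 (unadjusted p = 0.00679, adjusted p = 0.147 by edgeR). In that fit 2505 of all 15115 genes had an unadjusted p below 0.05.

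Aurka and Plk1 encode kinases that mature the centrosomes and build the spindle. Plk1 (chromosome 7, 122159439 to 122169873) stood at 115, 129.8 and 104 CPM in the young libraries and 121, 154 and 124 CPM in the aged, with aged replicate 2 alone above every young library (log2 fold change 0.19 ± 0.114, adjusted p = 0.721). Aurka stood at 77.3 ± 14.6 and 84.2 ± 13.2 CPM. The chromosomal passenger complex corrects faulty attachments of chromosomes to the spindle, and it consists of the kinase Aurora B (Aurkb), its scaffold Incenp, Survivin (Birc5) and Borealin (Cdca8). Its 4 genes had log2 fold changes of 0.15 (Aurkb), 0.17 (Incenp), 0.13 (Birc5) and 0.19 (Cdca8), with adjusted p between 0.701 and 0.824. The ratio of Aurkb to Birc5 CPM varied little over the libraries, with 0.868, 0.922 and 0.876 in the young group and 0.873, 0.922 and 0.906 in the aged group.

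At the centromere, Cenpa encodes the histone H3 variant that marks it, Cenpe a motor that moves chromosomes along microtubules, Cenpf a large protein of the outer kinetochore, and Ndc80 and Nuf2 partners in the complex that grips the microtubule ends. Ndc80 (chromosome 17, 71496100 to 71526857) stood at 22.1, 23.4 and 21.2 CPM in the young libraries and 22.9, 28.5 and 24.4 CPM in the aged. Aged replicates 2 and 3 lay above all young libraries and aged replicate 1 did not (log2 fold change 0.18 ± 0.105, adjusted p = 0.713). Cenpf (chromosome 1, 189640606 to 189688086) had 68.1, 67.6 and 50.6 CPM in the young libraries and 53.0, 63.3 and 63.9 CPM in the aged, so that young replicates 1 and 2 were the highest and young replicate 3 the lowest of the 6. Cenpa, Cenpe and Nuf2 had log2 fold changes of 0.02, 0.16 and 0.06.

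The spindle checkpoint holds back anaphase until every kinetochore is attached, and among its genes Bub1, Bub1b and Ttk encode kinases or a kinase relative and Mad2l1 the inhibitor of Cdc20. Their log2 fold changes were 0.08, 0.10, 0.18 and 0.02, none called. Bub1 varied most between libraries of all members, at 40.4, 50.1 and 32.1 CPM in the young libraries, a 1.56-fold range within an age group, and at 36.8, 47.4 and 45.6 CPM in the aged. Cdc20 activates the anaphase-promoting complex, the ubiquitin ligase that ends mitosis, and Ube2c supplies it with ubiquitin. Cdc20 (chromosome 4, 118432901 to 118437352) stood at 154, 166 and 147 CPM in the young libraries and 152, 178 and 145 CPM in the aged, and Ube2c (chromosome 2, 164769898 to 164778822) at 149, 158 and 136 CPM in the young libraries and 142, 175 and 135 CPM in aged. For both genes aged replicate 2 was the highest and aged replicate 3 the lowest of the 6 libraries, and the log2 fold changes were 0.02 ± 0.0922 and 0.03 ± 0.106.

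Of the genes for spindle motors and microtubule proteins, Kif11 encodes the motor that pushes the spindle poles apart, Kif2c one that shortens microtubules, Kif4 a chromosome motor, Tpx2 the activator of Aurora A, Nusap1 a microtubule bundler and Stmn1 a protein that destabilises microtubules. Nusap1 had the most negative log2 fold change of the 37 genes, -0.10 ± 0.103 (adjusted p = 0.878). It lies on chromosome 2 (119618298 to 119651244) and stood at 81.8, 70.2 and 71.2 CPM in the young libraries and 60.5, 77.0 and 71.0 CPM in the aged, where young replicate 1 was the highest and aged replicate 1 the lowest. Stmn1 was the steadiest member, between 15.7 and 17.0 CPM in all 6 libraries (log2 fold change 0.0069 ± 0.0926). Kif11, Kif2c, Kif4 and Tpx2 had log2 fold changes of 0.14, 0.11, 0.08 and 0.08.

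Cytokinesis genes act at the central spindle, where Prc1 bundles microtubules, the motors Kif20a and Kif23 and the GTPase activator Racgap1 gather, and Ect2 activates the GTPase that contracts the cleavage furrow, which anillin (Anln) scaffolds. Kif23 (chromosome 9, 61915905 to 61946774) stood at 150.1, 160.0 and 120.1 CPM in the young libraries and 129.7, 146 and 132 CPM in the aged, which lay inside the young range (log2 fold change -0.08 ± 0.108, adjusted p = 0.910). Prc1, Kif20a, Racgap1, Ect2 and Anln had log2 fold changes of 0.16, 0.08, 0.10, -0.04 and 0.07, and none was called.

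Mki67 encodes Ki-67, the coat of mitotic chromosomes that is the usual stain for dividing cells, Top2a the topoisomerase that untangles sister chromatids, and Hmgb2 a DNA-bending protein. Mki67 (ENSMUSG00000031004, chromosome 7, 135689784 to 135716361) stood at 570.3, 623 and 438 CPM in the young libraries and 537, 639 and 654 CPM in the aged. Young replicate 3 was the lowest of the 6 and young replicate 2 lay close to the upper pair of aged libraries (means 544 ± 94.9 and 610.1 ± 63.8 CPM, log2 fold change 0.17 ± 0.132, adjusted p = 0.824). Top2a (chromosome 11, 98992943 to 99024189) had the highest log2 fold change of the members, 0.25 ± 0.146, which did not pass the test (unadjusted p = 0.120, adjusted p = 0.716 by edgeR). Its libraries held 310.1, 369 and 254 CPM in the young libraries and 322, 427 and 362 CPM in aged mice, and young replicate 2 lay above aged replicates 1 and 3. Hmgb2 stood at 47.2 ± 2.83 and 49.7 ± 6.95 CPM.

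Transcript levels can be compared between genes only per length of exon, and the union of all annotated exons was used, which understates genes with long alternative exons. On that scale Cdc20 was the highest member, at 83.3 ± 5.21 CPM per kilobase in young and 84.6 ± 9.34 in aged libraries (SD, n = 3 each), followed by Ccnb2 (75.2 ± 4.61 and 74.7 ± 4.69). Ube2c (56.8 ± 4.26 and 58.0 ± 8.22), Mki67 (54.1 ± 9.44 and 60.6 ± 6.34) and Plk1 (52.9 ± 5.90 and 60.5 ± 8.28) came next and did not differ beyond their spread. The lowest were Ndc80 (3.43 ± 0.170 and 3.89 ± 0.447 CPM per kilobase), Cenpf (4.02 ± 0.646 and 3.89 ± 0.397) and Ccnb1 (4.88 ± 0.560 and 4.78 ± 0.473). Ndc80 and Cenpf did not differ beyond their spread, while the means of Ccnb1 lay above those of Ndc80 in both groups. The level of Cdc20 averaged 23.0 times that of Ndc80. Of the 37 genes, 24 ranked above percentile 75 of 14864 genes with a known length, and Ndc80, Cenpf, Ccnb1 and Nuf2 were the 4 below the median. Of the cyclin B genes, Ccnb2 stood far above Ccnb1 in level per kilobase in both age groups, over exon unions of 1.53 and 4.22 kilobases. Reads that match more than 1 place in the genome were not examined, so the size of this gap is uncertain.

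**Figure D3:**
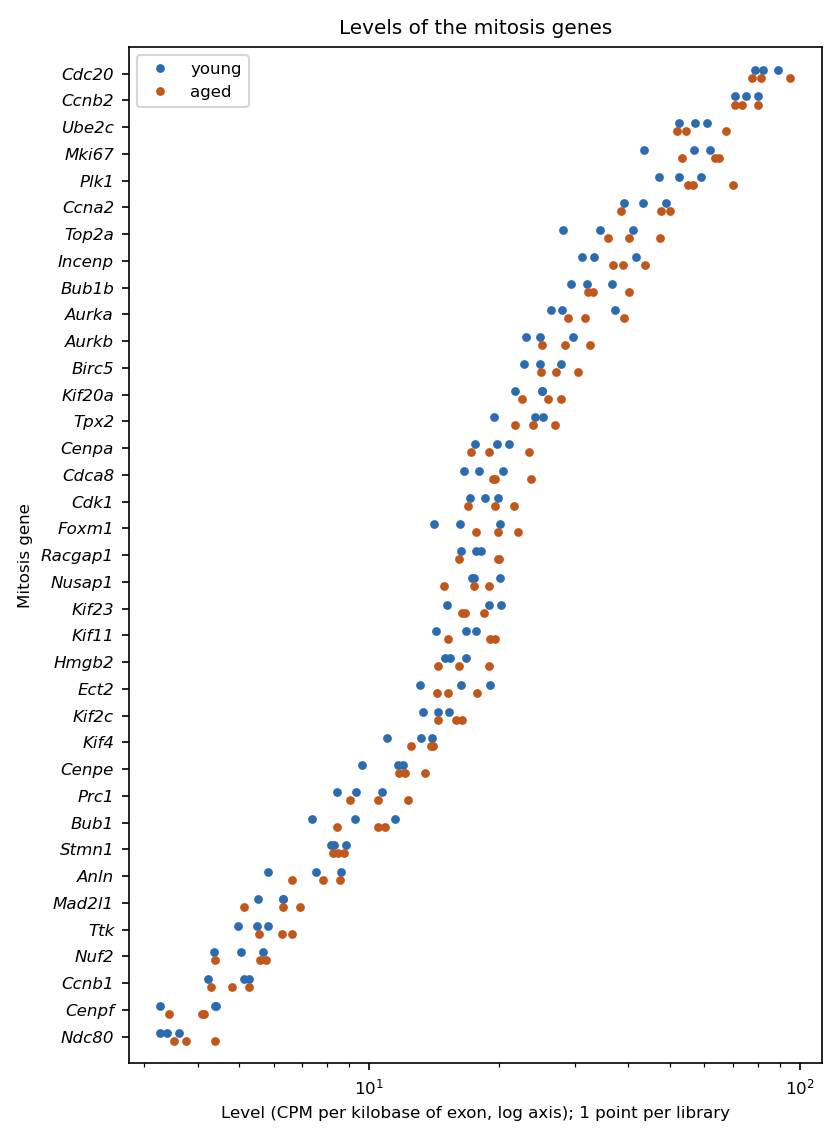
Level per kilobase of exon (x axis, CPM per kilobase, log axis) of each mitosis gene (y axis, ordered by mean), with 1 point per library in young and aged mice. The points of the age groups intermingle for every gene, from Ndc80 near 3.66 to Cdc20 near 83.9.

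Within each age group most members put the libraries in the same order. Aged replicate 2 was the highest aged library for 33 of the 37 genes, where 31.2% of all genes had it highest, and aged replicate 1 was the lowest for 31 (33.6% of all genes). Among the young, replicate 2 was the highest for 31 genes (39.4% of all) and replicate 3 the lowest for 34 (33.6% of all). Of all 6 libraries, young replicate 3 was the lowest for 26 members (20.4% of all genes) and aged replicate 2 the highest for 25 (16.1% of all genes). Summed over the 37 genes, the young libraries held 4005, 4394 and 3457 CPM and the aged libraries 3834, 4714 and 4232 CPM. The sums overlapped between the ages, with means of 3952 ± 471 and 4259.9 ± 441 CPM (SD, n = 3 each).

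**Figure D4:**
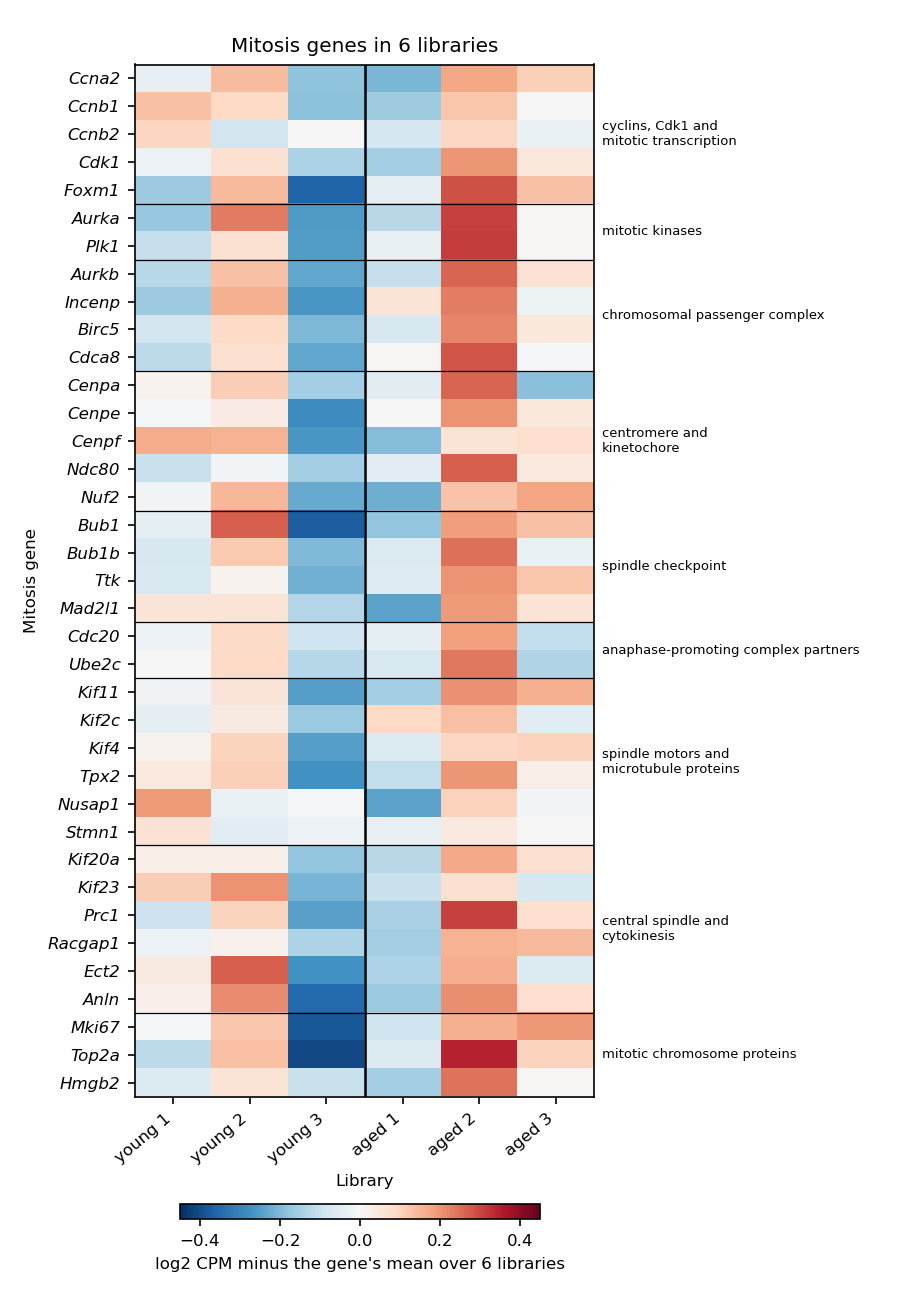
Log2 CPM of each mitosis gene (rows, grouped by role) minus its own mean over the 6 libraries (columns), from blue (lower) to red (higher). The column of young replicate 3 is blue for 36 of 37 genes and that of aged replicate 2 red for all 37.

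The spread between libraries differed between members. The standard deviation of log2 CPM within an age group ran from 0.0520 (Stmn1) to 0.266 (Bub1), with a median of 0.167, near the 0.154 of all genes tested. The other pathway lists given below had lower medians, from 0.101 (anaphase-promoting complex) to 0.159 (further spindle and cytokinesis genes). Stem cell genes had a median of 0.143 and enterocyte genes one of 0.356. Stmn1 and Ccnb2 (0.0889) moved least, and Bub1, Anln (0.243), Aurka (0.242) and Top2a (0.240) most. Followed across libraries, the ratio of Top2a to Ccnb2 CPM took values of 2.53, 3.41 and 2.21 in the young group and 2.97, 3.49 and 3.22 in the aged group. Since Ccnb2 moved little, this ratio largely follows Top2a itself and adds little to its values. The ratio was highest in young replicate 2 and aged replicate 2 of their groups, where most members were highest, and the ranges of the ages overlapped.

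Other genes of the mitotic pathway, from lists outside the 37, were measured beside them. Of 19 condensin and cohesin genes, which fold and hold chromosomes, 0 were called (0 with an unadjusted p below 0.05) and 17 had log2 fold changes above 0 (median 0.07). The cohesion factor Cdca5 had 0.21 ± 0.106 (adjusted p = 0.632) and the cohesin subunit Rad21, the most abundant of them, -0.02 ± 0.0872. Of 32 further kinetochore genes 0 were called (2 with an unadjusted p below 0.05) and 28 were above 0 (median 0.09), with Mad1l1, a checkpoint gene, at 0.25 ± 0.0862 (adjusted p = 0.320) and the centromere chaperone Hjurp at 0.02 ± 0.0735. Of 31 further spindle and cytokinesis genes 0 were called (1 with an unadjusted p below 0.05) and 25 were above 0 (median 0.08), with the kinase gene Cit at 0.26 ± 0.110 (adjusted p = 0.501) and the spindle pole gene Numa1 at 0.03 ± 0.0623. The lowest medians without 1 library were 0.02, 0.04 and 0.02 in these 3 lists, and the highest 0.13, 0.14 and 0.14.

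Among 17 subunits and regulators of the anaphase-promoting complex, 0 were called (0 with an unadjusted p below 0.05) and 9 were above 0 (median 0.02, and between -0.02 and 0.04 without 1 library), with Ube2s at 0.13 ± 0.118 and Anapc5 at -0.03 ± 0.0700. Of 31 Cdk1 regulators and cell cycle transcription factors 0 were called (2 with an unadjusted p below 0.05) and 23 were above 0 (median 0.08, and between 0.0021 and 0.15 without 1 library). The transcription factor gene E2f5 had the log2 fold change farthest from 0, -0.23 ± 0.0951 (adjusted p = 0.482), and the abundant Rbbp4 had -0.05 ± 0.0848. Of 8 Cdk inhibitors, which block the cell cycle kinases, 7 were tested and 0 called (1 with an unadjusted p below 0.05). Of these, 3 had log2 fold changes above 0 and the highest was 0.17 (median -0.01, and between -0.09 and 0.06 without 1 library). Cdkn1c stood at 13.1 ± 2.21 CPM in the young libraries and 10.2 ± 0.759 CPM in the aged (adjusted p = 0.449) and Cdkn1a at 118 ± 13.7 and 104 ± 6.28 CPM (adjusted p = 0.660).

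The DNA replication genes act in S phase, before mitosis. Of 52 such genes 0 were called (3 with an unadjusted p below 0.05), 43 had log2 fold changes above 0, and the median was 0.09 (0.04 without young replicate 3 and 0.13 without aged replicate 1). The cyclin gene Ccne1 had 0.31 ± 0.128 (adjusted p = 0.490) and the helicase subunit gene Mcm6 0.04 ± 0.0934. DESeq2 and limma-voom likewise called 0 genes in each of these 7 pathway lists. The 52 DNA replication genes summed to 4013, 4473 and 3866 CPM in the young libraries and 4036, 4601 and 4585 CPM in the aged. Young replicate 3 and aged replicate 1 were thus again the lowest of their groups. The ratio of the summed mitosis genes to the summed replication genes stayed between 0.894 and 1.02 over the 6 libraries, at 0.958 ± 0.0559 in young and 0.966 ± 0.0527 in aged mice.

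Markers of crypt base stem cells ran in another order. The 20 stem cell genes summed to 8611, 7115 and 8099.8 CPM in the young libraries and 7483, 7194 and 8005 CPM in the aged, so that young replicate 2, the highest young library for the mitosis genes, was the lowest here. None of the 20 was called and 0 had an unadjusted p below 0.05 (median log2 fold change -0.02, 8 above 0; -0.06 without young replicate 2 and 0.0096 without young replicate 1), with Tnfrsf19 at -0.27 ± 0.143 (adjusted p = 0.664) and Olfm4, the most abundant, at -0.11 ± 0.114. Absorptive enterocytes are the non-dividing cells of the villus, and 16 of their genes summed to 9688, 7728 and 7329.8 CPM in the young libraries and 8104, 5520.2 and 7898 CPM in the aged. Aged replicate 2, the highest library for most mitosis genes, was the lowest here, and young replicate 3, the lowest for most mitosis genes, was also the lowest young library here. None of the 16 was called by edgeR or limma-voom, and 3 were by DESeq2. In edgeR 5 of the 16 had an unadjusted p below 0.05, where 9.23% of all genes did. Of the 16, 5 were above 0 (median -0.19, and between -0.33 and -0.0045 without 1 library). The groups did not overlap for 1 higher and 4 lower genes, against 6.3% and 7.49% of all genes. The log2 fold changes of the 16 ran from -1.09 to 0.98, with Lct, the lowest, at -1.09 ± 0.463 (adjusted p = 0.578 by edgeR). The part of cell composition in the levels of the mitosis genes was not tested.

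**Figure D5:**
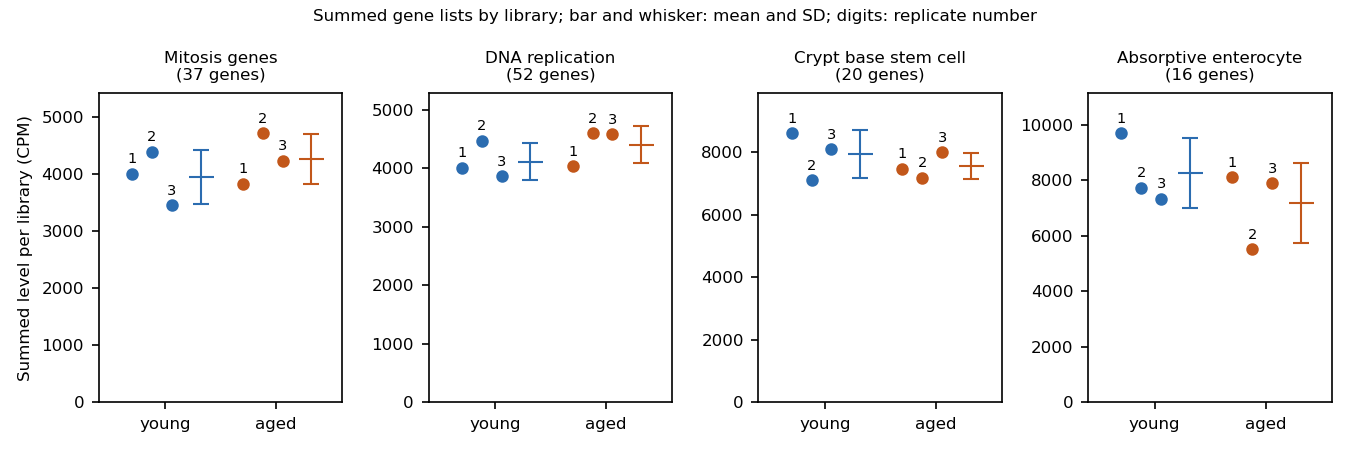
Summed CPM (y axis from 0, 1 scale per panel) of the mitosis, DNA replication, crypt base stem cell and absorptive enterocyte genes in each library, with digits for replicate numbers and bars for mean and SD. The mitosis sums run from 3457 to 4714 CPM with the ages overlapping, and aged replicate 2 is highest for mitosis and lowest for enterocyte genes.

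Dividing leukocytes would carry the same transcripts, so markers of other cells were measured beside the members. The 7 epithelial markers summed to between 9786 and 11045 CPM, and none was called. Epcam itself had means of 1656 ± 18.3 CPM over the young group and 1510.4 ± 11.3 CPM over the aged group (adjusted p = 0.653 by edgeR). Its groups did not overlap, as was so for 13.8% of all genes in either direction. The 14 T lymphocyte markers summed to between 6.41 and 7.07 CPM in the young libraries and between 6.32 and 11.1 CPM in the aged, and 7 of them passed the filter. The lowest of these sums was that of aged replicate 2, the library with the highest mitosis sum. Of the 7 T lymphocyte markers tested, 5 had log2 fold changes above 0 and 2 below, with a median of 0.20 and a lowest value of -0.29. Itgae, an integrin subunit, was the only T lymphocyte marker called, at 1.16 ± 0.214 and 3.40 ± 0.582 CPM (adjusted p = 0.0129 by edgeR). The 10 myeloid markers summed to between 43.9 and 47.7 CPM in the young libraries and between 53.6 and 74.7 CPM in the aged. Of the 4 that were tested, 3 had log2 fold changes above 0 and 1 was at -0.53. The groups did not overlap for 1 higher and 1 lower marker, against 6.3% and 7.49% of all genes tested. Only Itgam was called (12.6 ± 0.681 and 21.6 ± 1.18 CPM, adjusted p = 0.00726 by edgeR). S100a8 and S100a9 were at 0 counts in all libraries. Aged replicate 2 had the highest myeloid sum, and its part in the mitosis values was not tested. Lists of 6 B and plasma cell, 9 fibroblast and smooth muscle, 5 endothelial and 6 erythroid markers summed to at most 3.93, 0.696, 3.89 and 2.23 CPM in a library, with Cdh5, Kdr and Lum at 0 counts.

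Annotated exons of 11 members share bases with another gene. The largest overlaps with an expressed gene were those of Kif20a with Cdc23 (29.3% of the exon bases of Kif20a), Kif4 with Pdzd11 (15.1%), Ccna2 with Exosc9 (12.5%) and Prc1 with Rccd1 (11.1%), each on the opposite strand. Ube2c shared 22.8% of its exon bases with Tnnc2, also on the opposite strand, which averaged 0.176 CPM. No source used here gives the strand setting of the counting, and the counts of these members are uncertain to that extent. The processed copy Ccnb2-ps held 53 counts over the 6 libraries and Kif4-ps 0. Only copies named after a member were looked for, and copies under other names may exist.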

How the data were processed

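RNA of 6 libraries was measured, and the authors deposited unnormalised read counts for 46078 Ensembl gene IDs, as its whole numbers and unequal totals show. Per the labels' protocols, libraries came from poly(A) RNA by a strand-keeping kit. Per the submitters' processing notes, the build was GRCm38 and the tools included STAR, HISAT2 2.1.0, featureCounts 1.6.4 and DESeq2 1.28.1, with no roles given; the annotation release is not given in the sources used here. Positions and exon lengths are from GENCODE M21 on GRCm38, which held 45229 of the gene IDs. Genes were kept by filterByExpr (minimum count 10) in edgeR 4.0.16, which left 14923, and scaled with TMM factors. Ages were compared by a quasi-likelihood test in edgeR (robust, age as the only term), with Benjamini-Hochberg adjustment over all genes and a threshold of 0.05. Standard errors are the log2 fold change over the square root of F, and intervals use the test's degrees of freedom. Log2 CPM used a prior count of 2. The tests were tried on simulated counts, drawn for each gene independently and with set changes of 1.5-fold or more. That trial did not cover differences as small as those of the members or an order of libraries shared between genes. Libraries of a group differed by more than sampling noise (smallest chi-square per gene 25.0, where noise gives about 1). Alternatives used DESeq2 1.42.0, limma 3.58.1, other scalings and filters, and each library left out. Knl1, Sgo1 and Sgo2a were matched by gene ID under older symbols.

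The members and lists were chosen with earlier results of these data known. Members given in full were Mki67, Top2a, Ccnb1, Cdk1 and Foxm1, the 3 highest and 3 lowest per kilobase, the 3 largest log2 fold changes each way, and any with unadjusted p below 0.05 or no overlap between the groups. From each other pathway list the gene with the largest absolute log2 fold change and the most abundant were named. A gene that this rule names in the enterocyte list and a marker at 0 counts are not reported here. Bub1 and Stmn1 were described for their spread after their values were seen.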

Additional observations from a re-analysis of the deposited data

How the results depend on the processing

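The counts of 0 mitosis genes called higher and 0 called lower held under RLE, upper quartile and no scaling factors, both other filters, DESeq2, limma-voom, non-robust estimation and all 6 fits without 1 library. The lowest adjusted p of a member in any of them was 0.147 (Foxm1 without young replicate 2). Without young replicate 2, 6 members had an unadjusted p below 0.05, as did 2505 of all 15115 genes tested in that fit. Without aged replicate 1, 3 members did, as did 1118 of all 15083 genes tested there. Over the fits without 1 library the median of the mitosis genes ran from 0.0045 to 0.16, and over the other alternatives from 0.07 to 0.09. The counts over all genes moved more: 168 higher and 245 lower with no filter, 206 and 276 with DESeq2, 67 lower when 1 CPM was required in 3 libraries, and between 35 and 135 higher and between 30 and 135 lower without 1 library. Enterocyte genes had 1 call with no filter, 3 with DESeq2 and between 0 and 1 without 1 library (1 without aged replicate 3), and stem cell genes between 0 and 1 (1 without young replicate 2). The cause was not tested.

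Of 518 member values under the alternatives, 39 changed sign, none of them called, in 20 of the 37 genes. Without 1 library the log2 fold change ran from -0.028 to 0.16 for Ccna2, -0.12 to 0.043 for Ccnb1, -0.066 to 0.036 for Ccnb2, -0.024 to 0.16 for Cdk1, -0.014 to 0.28 for Aurka, -0.12 to 0.11 for Cenpa, -0.18 to 0.036 for Cenpf, -0.031 to 0.18 for Nuf2, -0.066 to 0.25 for Bub1, -0.0085 to 0.18 for Bub1b, -0.085 to 0.13 for Mad2l1, -0.075 to 0.079 for Cdc20, -0.10 to 0.10 for Ube2c, -0.013 to 0.15 for Kif4, -0.031 to 0.15 for Tpx2, -0.024 to 0.042 for Stmn1, -0.19 to 0.0025 for Kif23, -0.17 to 0.093 for Ect2, -0.074 to 0.19 for Anln and -0.044 to 0.16 for Hmgb2. Stmn1 also stood at -0.0085 with upper quartile factors and -0.0012 with the filter of 1 CPM. No paired analysis was possible because the labels carry no replicate numbers; those printed here follow the order of the samples and pair nothing. With 3 libraries per age the members' 95% intervals reached a median of 0.26 to either side on the log2 scale. Members held 665 or more counts in every library, the fewest in Stmn1, and counting error was not separated from other spread between libraries.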
